A study of Mus musculus with 2 samples.

Results

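The 10 miRNAs described here are those known to promote brown fat: miR-193b, miR-365, miR-182, miR-203, miR-196a, miR-378, miR-328, miR-26a, miR-26b and miR-455. They were taken by name, not by their values, and the array's names for those with a probe are miR_193b, miR_365, miR_182, miR_203, miR_196a, miR_378, miR_328, miR_26a and miR_26b. Of the 10, 9 have a probe among the 256 mouse miRNAs on the array, and miR-455 is only in a customized panel of 16 rows in the authors' deposited table. The study compared C3H10T1/2 cells, a mouse mesenchymal line that can turn into fat, bone or cartilage cells, given BMP7 at 3.3 nM over 3 days, with the same line given vehicle over 3 days. BMP7, a bone morphogenetic protein, is a growth factor of the TGF-beta family. Total RNA of each group was tailed with poly(A), labelled with the green dye Cy3, and put on 1 array per group. With 1 array per group there is no test across samples, no p-value is given, and precision is limited by the number of arrays.

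Brown fat cells burn fuel to make heat, and BMP7 is known to lead mesenchymal cells toward them. A miRNA is a short RNA that lowers the output of mRNAs matching its seed, the bases 2 to 8 from its 5′ end. The miRNAs of this list act on brown fat through different targets. MiR-193b and miR-365 come from a shared cluster, and miR-193b and miR-455 are both known to repress Runx1t1, an inhibitor of adipogenesis. MiR-455 also represses Necdin, miR-196a represses Hoxc8, a homeobox gene of white fat, miR-378 represses the phosphodiesterase Pde1b, and miR-328 represses Bace1. MiR-182 and miR-203 are known to keep brown fat cells in their state, and the miR-26 family is known from human fat cells, where it represses ADAM17.

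The sequences show which of these probes have close relatives, since a probe can also read a miRNA that differs by few bases. Mature sequences of 8 of the 10 miRNAs were taken from NCBI RefSeq (build GRCm38.p6), and miR-378 and miR-328 are named only. The probe names give no arm, so the arm shown is the one that the older plain name stood for. For miR-455 both arms are given. Capitals mark the seed, and each sequence runs 5′ to 3′. The relatives miR-193a, miR-96 and miR-196b are shown for comparison.
miR-26a-5p: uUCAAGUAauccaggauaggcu
miR-26b-5p: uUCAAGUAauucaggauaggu
miR-193b-3p: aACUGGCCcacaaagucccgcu
miR-193a-3p: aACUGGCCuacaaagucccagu
miR-196a-5p: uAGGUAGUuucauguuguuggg
miR-196b-5p: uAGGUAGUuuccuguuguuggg
miR-182-5p: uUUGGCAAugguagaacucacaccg
miR-96-5p: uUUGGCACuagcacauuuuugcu
miR-365-3p: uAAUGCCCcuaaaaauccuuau
miR-203-3p: gUGAAAUGuuuaggaccacuag
miR-455-5p: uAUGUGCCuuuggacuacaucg
miR-455-3p: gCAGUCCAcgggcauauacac

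MiR-26a and miR-26b share their seed and differ at 2 of the 21 bases compared, C11U and C21U, counted from the 5′ end with the base of miR-26a first. MiR-193b and miR-193a also share a seed and differ at 3 of 22 bases. MiR-196a and miR-196b share a seed too and differ at 1 of 22 bases, A12C, with the base of miR-196a first. MiR-182 and miR-96, which come from 1 cluster, differ within the seed itself, at its last base (A8C, base of miR-182 first), and at 11 of 23 bases in all. MiR-365, miR-182 and miR-203 shared their seed with no other mouse mature miRNA in that table.

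In the genome (GRCm38.p6), the miR-26 genes all lie inside genes of the Ctdsp phosphatase family. MiR-26a is made from 2 of them, inside Ctdspl at chr9:119031811-119031832 and inside Ctdsp2 at chr10:126995543-126995564, both on the plus strand. MiR-26b lies inside Ctdsp1 at chr1:74394324-74394344, plus strand. MiR-193b, at chr16:13449570-13449591 on the plus strand, has a miR-365 gene beside it at chr16:13453895-13453916, and the other miR-365 gene, at chr11:79726467-79726488, lies beside Mir193a. MiR-182, at chr6:30165962-30165986 on the minus strand, lies within the host gene Mirc35hg with Mir96 and Mir183. MiR-455 lies inside the collagen gene Col27a1, its 5p arm at chr4:63256867-63256888 and its 3p arm at chr4:63256904-63256924, both on the plus strand. MiR-196a is made from 2 genes, at chr11:96265187-96265208 and chr15:102973365-102973386, and miR-203 from chr12:112130927-112130948, all on the plus strand.

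On the arrays, 3 of the 9 brown fat miRNAs with a probe, miR-26a, miR-328 and miR-378, stood above background in the Cy3 channel, and 6 did not. A probe was counted as detected when at least 2 of its 4 spots lay above their own local background by more than a fixed margin. The margin was 2 times the standard deviation of all local backgrounds of that array, 948 intensity units for BMP7 and 1152 for vehicle. By this rule 3 of the 9 were detected with BMP7 and 2 with vehicle, and 2 on both arrays. Over all 256 mouse miRNAs the share was 16.0% with BMP7 and 22.7% with vehicle, with 25.4% detected on at least 1 array and 13.3% on both. The 3 of 9 detected on at least 1 array is thus near the share over all mouse miRNAs. Of 64 probes whose names match no mouse gene, 10.9% passed on at least 1 array. Median local background was 4650 units with BMP7 and 3756 with vehicle, and the green laser read 3.17 for BMP7 and 2.45 for vehicle. Below their local background lay 22 of the 36 spots of these 9 probes with BMP7 and 15 of 36 with vehicle. The part of background and laser power in the results below was not tested.

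**Figure D1:**
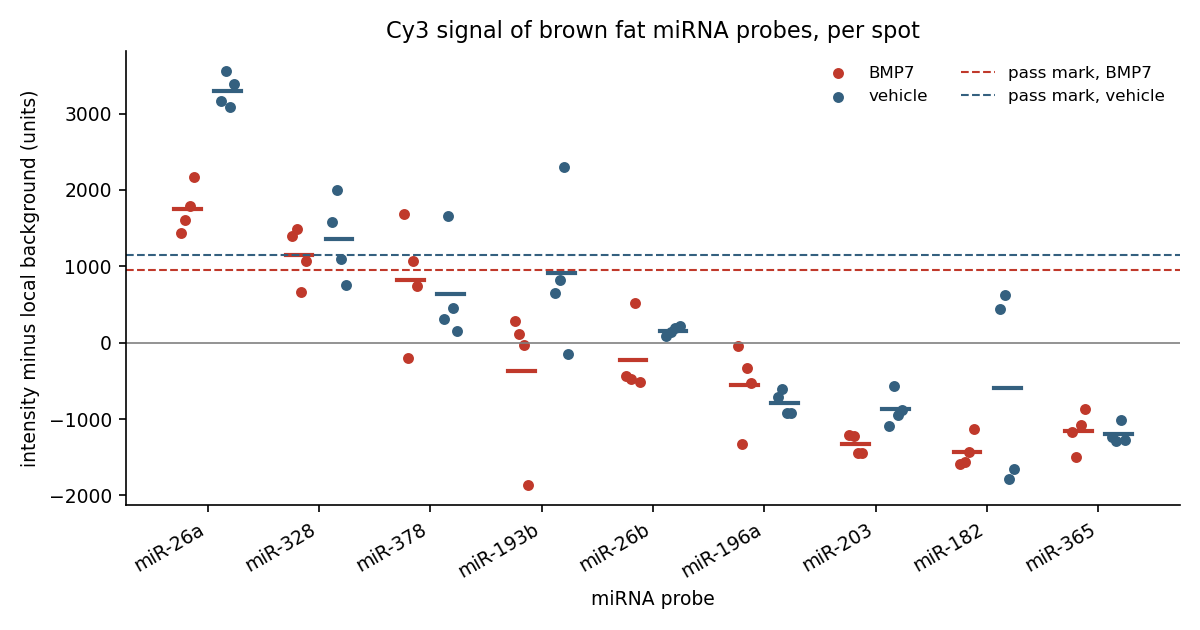
Cy3 intensity minus the local background (y axis, intensity units) for each of the 4 spots of the 9 probes, with the BMP7 array in red to the left of the vehicle array in blue; bars are means over spots and dashed lines the level a spot had to exceed on each array. All miR-26a spots lie above the lines, between 1438 and 2170 units with BMP7 and between 3085 and 3552 with vehicle, while all miR-365 and miR-203 spots lie below 0.

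MiR-26a passed in all 4 spots of both arrays and was lower with BMP7. Its 4 spots stood 1438, 1604, 1794 and 2170 units above background on the BMP7 array, against 3169, 3552, 3085 and 3382 units on the vehicle array. With the local background taken off, every BMP7 spot was below every vehicle spot. Raw brightness overlapped, at 5962, 6195, 6447 and 6928 units with BMP7 against 6817, 7118, 6825 and 7116 with vehicle. Local background lay between 4524 and 4758 units with BMP7 and between 3566 and 3740 with vehicle. After background correction and quantile normalization, miR-26a was 1.32-fold lower with BMP7, a log2 change of -0.40 ± 0.08. In RNA of a whole culture, fewer cells that hold a miRNA and less of it per cell cannot be told apart. Errors of log2 changes here are standard errors over the 4 spots of each array and cover the spread within an array, not that between cultures. Among the 65 miRNAs detected on at least 1 array, 23.1% likewise had every BMP7 spot below every vehicle spot, and 18.5% had every BMP7 spot above. MiR-26a was the only one of the 3 detected brown fat miRNAs whose spots did not overlap by normalized values. Its log2 change was -0.20 with no background correction and -0.63 with plain subtraction of the local background.

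The relative miR-26b, with the same seed, was not detected. Its spots were at -440, -477, 521 and -512 units against local background on the BMP7 array, against 82, 140, 194 and 216 units on the vehicle array. The BMP7 spots scattered on both sides of the vehicle spots, and no fold is given.

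MiR-328 was above background on both arrays at like levels. Its 4 spots stood 1391, 1484, 662 and 1075 units above background on the BMP7 array, against 1575, 1995, 1094 and 749 units on the vehicle array. The spots overlapped, and 3 of 4 passed the detection rule with BMP7 and 2 of 4 with vehicle. The log2 change was 0.20 ± 0.18, so that the difference was about as large as its error over spots. Its sign turned with no background correction, to -0.05.

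MiR-378 passed detection on the BMP7 array only. Its spots were at 1688, -195, 1063 and 744 units on the BMP7 array, against 306, 1660, 452 and 150 units on the vehicle array. The BMP7 spot at 1063 units passed the mark of its own array, 948, but lies below the vehicle mark of 1152. A single low BMP7 spot and a single high vehicle spot, both at the second place of the probe, made the groups overlap. The fitted log2 change was 0.45 ± 0.36, not much larger than its error over spots, and with detection on 1 array only no fold or lower bound is given. With no background correction it was 0.11. Without the second spot of each array the log2 change was 0.92, without the first it was 0.20, and with plain subtraction it was 1.57.

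The array also has probes named miR-422b and miR-422a. MiR-422b is the older database name of the strand now called miR-378a-3p, and the plain name miR-378 stood for the other strand before that change, so the strand read by the miR-378 probe cannot be told from its name. The miR-422b probe was not detected in the Cy3 channel. Its spots were at -131, -367, -19 and -109 units on the BMP7 array, against 106, -37, 564 and 829 units on the vehicle array. The miR-422a probe lay below its local background in every spot of both arrays, between -1516 and -1117 units with BMP7 and between -1043 and -654 with vehicle.

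Together the 3 detected brown fat miRNAs had a median log2 change of 0.20, and all 65 detected miRNAs one of -0.03. These medians are not like for like. MiR-378 entered its set through the BMP7 array only, while of the 65, 41 passed with BMP7, 58 with vehicle and 34 on both. None of the 3 reached a 2-fold change, where 4.62% of all detected miRNAs were at least 2-fold higher with BMP7 and 7.69% at least 2-fold lower. The median of the 3 is the value of miR-328, with miR-378 above it and miR-26a below it. The 3 fitted values thus differ in sign, and the 6 array members not detected in the Cy3 channel give no direction there. Limited to miRNAs detected on both arrays, miR-328 and miR-26a, the median was -0.10. No matching median over all miRNAs detected on both arrays is given.

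**Figure D2:**
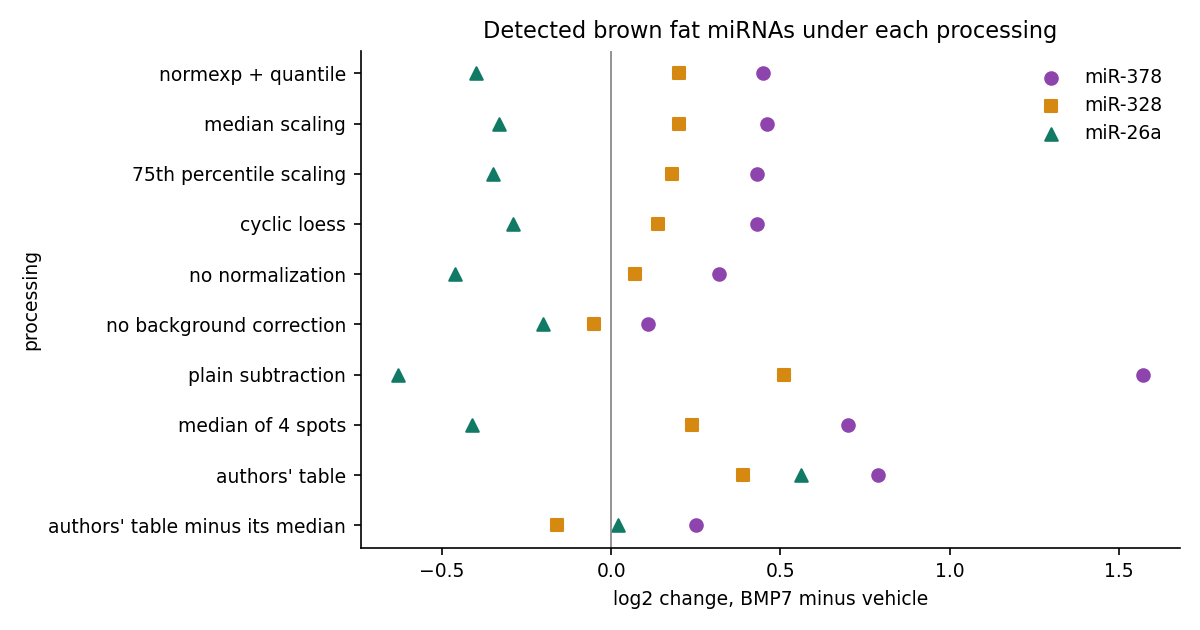
Log2 change, BMP7 minus vehicle (x axis), of the 3 detected brown fat miRNAs under each processing (rows). MiR-26a lies below 0 in every row of the Cy3 channel, between -0.63 and -0.20, and at 0.56 in the authors' deposited table; miR-378 lies above 0 in all rows shown, and miR-328 stays between -0.16 and 0.51.

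The miR-193b and miR-365 cluster was not detected. MiR-193b spots were at 277, 107, -30 and -1859 units on the BMP7 array, against 656, 823, 2304 and -150 units on the vehicle array. Only 1 vehicle spot, at 2304 units, exceeded the mark of its array. MiR-365 was darker than its surroundings in every spot, at -1171, -1504, -1083 and -865 units on the BMP7 array, against -1234, -1287, -1010 and -1272 units on the vehicle array. The seed relative miR-193a was not detected either, with spots between -772 and 89 units with BMP7 and between -384 and 209 with vehicle.

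MiR-182 and miR-203 were likewise not above background. MiR-182 spots were at -1584, -1566, -1437 and -1137 units on the BMP7 array, against 436, 630, -1789 and -1649 units on the vehicle array. The vehicle spots fell into an upper and a lower pair, whose raw brightness was nearly equal (2755 and 2550 units for the upper pair, 2774 and 2698 for the lower). The local backgrounds around them were not: 2319 and 1920 units for the upper pair, against 4563 and 4347 for the lower. MiR-203 spots lay between -1450 and -1209 units with BMP7 and between -1090 and -572 with vehicle, all below their local background. The cluster partners miR-96 and miR-183 and the other strand, miR-182_AS, did not pass on either array.

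MiR-196a was below its local background in every spot of both arrays, at -48, -1321, -327 and -533 units with BMP7, against -713, -606, -918 and -924 units with vehicle. The spots overlapped. Its relative miR-196b, which differs from it at 1 base, passed on the vehicle array only, with spots at -9, -304, 249 and -228 units with BMP7, against 1472, 1173, -840 and -575 units with vehicle. Spots 1 and 2 of the vehicle array made that call, and no fold is given. Their raw brightness was 3720 and 4948 units, against 4681 and 4790 for spots 3 and 4. Their local backgrounds were 2248 and 3775 units, against 5521 and 5365 for spots 3 and 4. For the 6 brown fat miRNAs that were not detected, levels and directions could not be read from the Cy3 channel at this signal over background, and their absence is not shown.

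The scans hold a second, red channel, and the sources used here do not say what was in it. By mean brightness, 8 of the 9 exceeded the brightest spot of the control named Control_1 on both arrays, as did 94.9% of all 256 mouse miRNAs. The exception was miR-365, with 331, 252, 396 and 351 units on the BMP7 array, against 407, 374, 462 and 469 units on the vehicle array; the brightest Control_1 spot had 412 and 319 units on the same arrays. Another control, Control_4, was brighter, with a mean of 604 units with BMP7 and 512 with vehicle. The means of miR-196a, 553 and 457.5 units, and those of miR-365 lay below Control_4 on both arrays. MiR-193b had 5232, 5082, 6611 and 8190 units on the BMP7 array, against 8356, 8844, 9912 and 8741 units on the vehicle array. Every BMP7 spot of miR-193b was dimmer than every vehicle spot.

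In that channel the spots of 4 of the 9 probes stood apart with BMP7 below: miR-193b, miR-182, miR-203 and miR-26a. Over all 256 mouse miRNAs this held for 36.7%, so 4 of 9 is near the background. Those of 1, miR-196a, stood apart with BMP7 above, and 7.03% of all did. MiR-26a had a mean of 2964 ± 241 units with BMP7 and 4090.5 ± 240 with vehicle (SD over 4 spots of 1 array). MiR-182 averaged 4281 ± 252 units with BMP7 and 5717.5 ± 649 with vehicle, and miR-203 2957 ± 105 with BMP7 and 3513 ± 192 with vehicle. MiR-196a was dim, at 553 ± 30.6 units with BMP7 and 457.5 ± 26.3 with vehicle, with no background taken off. With the local background taken off, its spots overlapped, at 315, 202, 226 and 252 units with BMP7. Those of the vehicle array were then at 285, 263, 194 and 259 units. By their means, 8 of the 9 were dimmer with BMP7, and so were 71.1% of all mouse miRNAs.

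**Figure D3:**
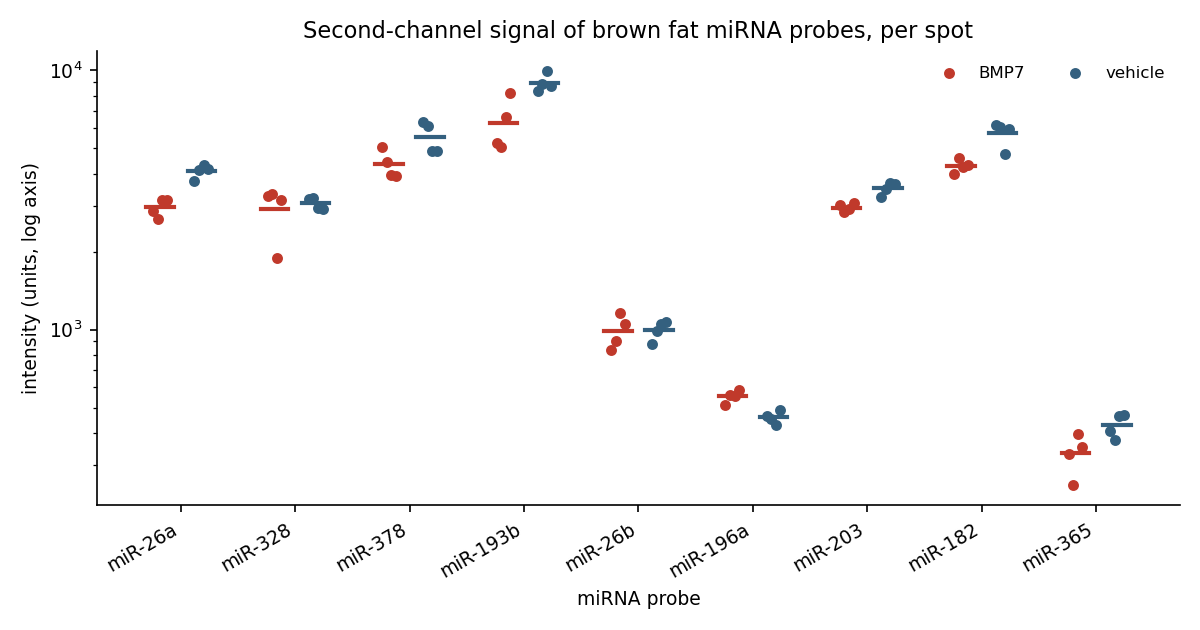
Intensity in the second channel (y axis, log scale, background not subtracted) of each of the 4 spots of the 9 probes, BMP7 array in red to the left of the vehicle array in blue; bars are means over spots. MiR-193b, miR-182, miR-203 and miR-26a lie lower on the BMP7 array without overlap, miR-196a lies higher, and the other 4 probes overlap.

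The authors' deposited table holds each array probe as a ratio, rebuilt here as the Cy3 over the second-channel brightness, averaged over 4 spots and divided by the same mean of the Control_1 spots, with no background taken off. In the authors' deposited table all 9 brown fat probes were higher with BMP7, and so were 92.6% of the 339 array probes it lists. The median fold of the 9 in the authors' deposited table was 1.60, against 1.46 over the 339. Of the 9, 6 were above that median, as 49.9% of the 339 are. Only miR-365, at 2.03-fold, reached 2-fold in the authors' deposited table, where 7.67% of the 339 did so upward and 0.295% downward.

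By fold in the authors' deposited table the order was miR-365 at 2.03, miR-182 at 1.86, miR-378 at 1.73, miR-193b at 1.64, miR-203 at 1.60, miR-26a at 1.48, miR-196a at 1.32, miR-328 at 1.31 and miR-26b at 1.09. MiR-365, the first on that list, had little signal in either channel. The authors' deposited table gives it a ratio of 0.549 with BMP7 and 0.270 with vehicle, both of which rest on spots below the local Cy3 background. Spot by spot, the rebuilt ratio of miR-365 was 0.5625, 0.5613, 0.4749 and 0.5998 with BMP7, against 0.293, 0.3147, 0.2526 and 0.2212 with vehicle. These did not overlap. For 7 of the 9, all but miR-193b and miR-26b, every rebuilt BMP7 ratio was above every vehicle ratio, and the same held for 66.0% of the 256 mouse miRNAs, a background to which 7 of 9 is near.

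Apart from the averaging over spots, the fold of such a ratio is the product of 3 factors that can be read separately. The Control_1 factor is common to all probes and was 1.17 in favour of BMP7. The raw Cy3 brightness of miR-26a was 0.92 times as high with BMP7 and its second-channel brightness 0.72 times, so that its ratio was higher with BMP7 while both channels were dimmer. MiR-193b showed the same pattern, at 0.92 times in the Cy3 channel and 0.70 times in the second. For miR-365 these were 1.36 and 0.78 times, and for miR-378 they were 1.16 and 0.78 times. Over all 256 mouse miRNAs the median was 1.11 times in the Cy3 channel and 0.90 times in the second, and the median local Cy3 background was 1.24 times as high on the BMP7 array. The direction of miR-26a therefore differs between measures: lower with BMP7 in the Cy3 channel, higher in the authors' deposited table, and 0.02 on the log2 scale in that table when set against its own median.

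**Figure D4:**
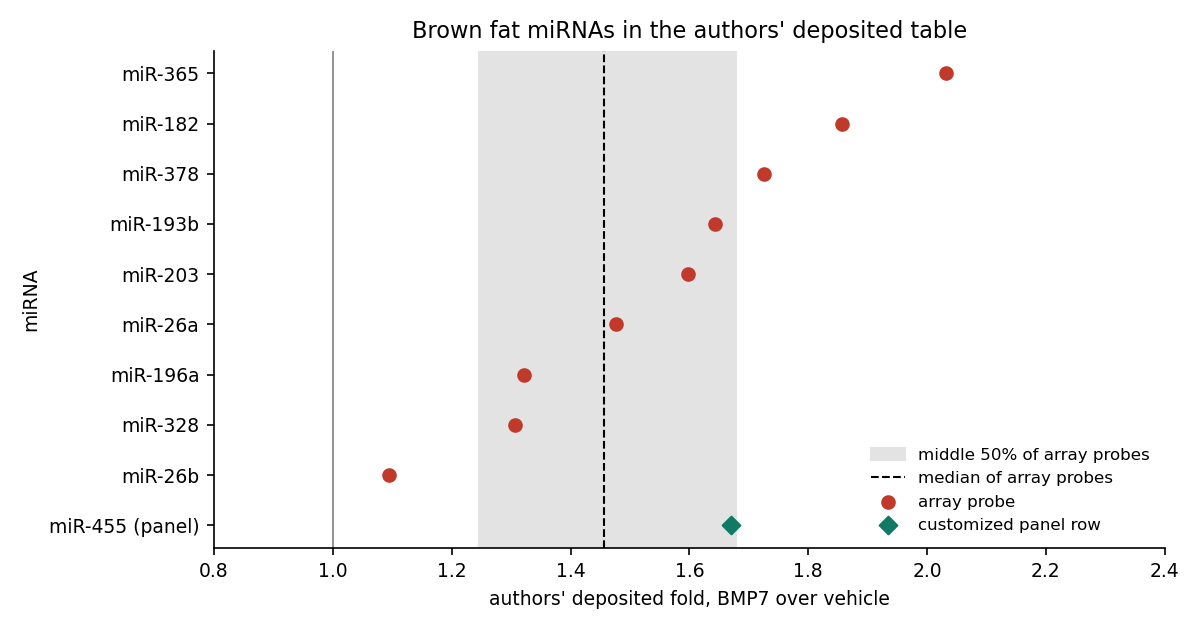
The authors' deposited fold, BMP7 over vehicle (x axis), of the 9 array probes (red) and of the miR-455 panel row (green), with the middle 50% of the 339 array probes in grey and their median of 1.46 as a dashed line. All 9 array probes lie above 1, from 1.09 for miR-26b to 2.03 for miR-365, as do 92.6% of the 339. The miR-455 row, at 1.67, comes from the panel, whose assay and scale are not named and where 43.8% of 16 rows were higher with BMP7.

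MiR-455 was measured only in the customized panel and, like all members, was chosen with earlier results of these data known. Its value in the authors' deposited table was 0.00169 with BMP7 and 0.00102 with vehicle, a 1.67-fold higher value with BMP7, with a single value per group and no error. By fold it came 3rd among the 16 panel rows in the authors' deposited table, behind miR-205 at 2.13 and miR-379 at 2.02. Of the 16, 7 (43.8%) were higher with BMP7. The miR-455 value was the highest of the 16 in both groups, ahead of miR-98 at 3.37e-04 with BMP7 and 3.00e-04 with vehicle in the authors' deposited table. The sources used here name neither assay nor scale nor reference for the panel, so this order need not be one of abundance, and the row does not say which arm of miR-455 was read.

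MiRNAs known to restrain brown or beige fat were set beside the group, from a list of 12, of which 11 have a probe. Of the 11, 6 were detected, all 6 on both arrays, beside 25.4% of all mouse miRNAs on at least 1 array and 13.3% on both. Their median log2 change was 0.12. The -0.03 over the 65 miRNAs detected on at least 1 array is not from a like set, since it includes miRNAs that passed on 1 array only. None reached a 2-fold change. MiR-199a and miR-214, which share a transcript, were higher with BMP7 with no overlap of spots, at 0.94 ± 0.18 and 0.91 ± 0.06 on the log2 scale, where 18.5% of all detected miRNAs stood apart upward. The other 4 overlapped: miR-93 was at 0.12 ± 0.26, miR-27a at 0.11 ± 0.12, miR-125b at 0.06 ± 0.13 and let-7i at -0.29 ± 0.51. MiR-27b, miR-34a, miR-106b, miR-133a and miR-155 were not detected. Of the 11, 10 are in the authors' deposited table as array rows, where 9 of the 10 had a higher value with BMP7, as did 92.6% of all its array rows. Their median fold in the authors' deposited table was 1.57, beside the 1.60 of the brown fat group; the difference between the lists was not tested. The panel rows of the authors' deposited table hold miR-133a and miR-133b of this list, and both were lower with BMP7, at 0.34 and 0.63 times the vehicle value. With BMP7 their values were 2.67e-11 and 3.61e-11, ranks 13 and 12 of the 16 rows, with a single value per group and no error. Of the 16, 7 (43.8%) were higher with BMP7, so lower values were common in the panel.

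Markers of other cell types were mostly below detection, as were most mouse miRNAs on the array. None of 3 muscle and 2 neuron probes was detected, while 1 of 6 blood, 1 of 5 epithelial and 1 of 2 liver probes passed on at least 1 array, where 25.4% of all mouse miRNAs did. The blood marker was miR-223, known from myeloid cells, at a log2 change of 1.01, its BMP7 spots all above its vehicle spots, and it is 1 of the 3 detected miRNAs at least 2-fold higher with BMP7. The liver marker was miR-192, at a log2 change of -0.32, its BMP7 spots all below its vehicle spots, and it was not detected with BMP7. The epithelial marker was miR-141, detected with vehicle only, with overlapping spots. Their part in the results above was not tested.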

How the data were processed

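Members and lists were chosen with earlier results of these data known. The deposited intensity values are mean spot brightness in the Cy3 and the second channel from GenePix, not normalized, per the file headers. The exports' sum and ratio of background-subtracted means, per the file headers, were used as a score to solve the local background for 1727 of 1728 spots on each array, and 1 took its block's median. The authors' deposited table holds ratio values and folds; the rebuilt ratio came within 0.1% for 336 of 339 array rows with BMP7 and 337 with vehicle.

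The Cy3 values were corrected with normexp (offset 50) in limma 3.58.1 (R 4.3.3), control spots removed, arrays quantile normalized, and log2 values of 4 spots averaged. Tables used Python 3.11.15, numpy 2.4.6 and pandas 2.3.3. Steps were tested on simulated data, with changes placed in bright probes only and both backgrounds drawn from the vehicle array. Dim probes and unequal backgrounds were not covered by it. Of 377 probes, 280 matched a mouse miRNA by name (RefSeq, GRCm38.p6) and 256 were kept, 1 per miRNA; all 9 probes described carry human names. No spot was flagged by the scanner software. All 10 members are named whatever their values, with relatives by seed, cluster or older name, and detected members of the restraining list. Detection used the spread of local backgrounds because the exports give no spread per spot. Alternatives tried were other background corrections, scalings, spot summaries, detection rules and the authors' table.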

Additional observations from a re-analysis of the deposited data

Results flagged for a closer look

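Relatives of the brown fat miRNAs that were not detected in the Cy3 channel, or passed on 1 array only, gave signal in the second channel, outside the Cy3 measurement reported for them: each exceeded the brightest of the Control_1 spots on either array (412 units with BMP7 and 319 with vehicle). This is not particular to them, since 94.9% of all 256 mouse miRNAs did so too. MiR-422b averaged 16395 units with BMP7 and 22036 with vehicle, and miR-422a 10818 with BMP7 and 15172 with vehicle. MiR-183 was at 4974 with BMP7 and 5574 with vehicle, and miR-182_AS at 3294 with BMP7 and 2544 with vehicle. MiR-193a was at 2040 with BMP7 and 2619 with vehicle, miR-96 at 2139 with BMP7 and 2011 with vehicle, and miR-196b at 1054 with BMP7 and 850 with vehicle. The sources used here do not say what that channel holds.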

How the results depend on the processing

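No paired analysis was possible because each group has 1 array. The median of the detected brown fat miRNAs, 0.20, kept its sign in 13 of 16 alternatives; it was -0.05 with no background correction, -0.10 for miRNAs detected on both arrays, -0.02 with no filter on dim probes, and 0.56 in the authors' deposited table. Without 1 spot it ran from 0.09 to 0.26. With 3 standard deviations only 1 of the 9 was detected, miR-26a. With plain subtraction 1 of the 3, miR-378, passed 2-fold. MiR-26a was below 0 in 11 of 13 alternatives, the exceptions being the authors' deposited table as it stands and against its own median, an alternative chosen after seeing the data. The count of miRNAs with spots apart stayed at 1 in the alternatives run for it, all on processed Cy3 values. The raw Cy3 spots of miR-26a overlapped. By the rebuilt ratio, miR-378, miR-328 and miR-26a all stood apart with BMP7 above, as did 66.0% of all mouse miRNAs. The causes were not tested. Low signal over background limits detection.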
